A study of Rattus norvegicus with 7 samples.

Results

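The lenses with nuclear opacity of the Ihara Cataract Rat were compared with the clear lenses of the same strain. In this rat, opacity appears with age without any treatment, first in the cortex of the lens and last in its nucleus. Nuclear opacity was represented by whole lenses of ICR/Ihr rats aged 14 weeks (1 array) and 18 weeks (1 array), and the stage labelled no cataracts by lenses aged 2 weeks (1 array) and 4 weeks (1 array). These are 4 of the 7 arrays of the series, which also holds cortical opacity at 8 and 10 weeks and posterior subcapsular opacity at 12 weeks, with 1 array each. The study used male rats of this strain for its arrays, and per the labels the lenses came from culture medium before grinding. All groups therefore share the strain and its hereditary defect, and no lens of a strain that stays clear was analysed here. Age and stage of opacity cannot be told apart, because each stage has its own ages. The labels do not say whether arrays of a stage came from separate animals, so that the errors given below measure only the spread between these arrays. RNA levels were read with the GeneChip Rat Gene 2.0 ST, and values are log2 RMA signals, on which a step of 1 is a doubling. The members compared were 5168 genes of 18166 with a name, namely those whose signal reached 5 on at least 1 of the 7 arrays.

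The lens is built of a single layer of epithelium over a mass of fibre cells, enclosed in a capsule of basement membrane. Cells near the equator leave the cell cycle, elongate, fill with crystallins and then destroy their nuclei and organelles, while older fibres are pushed inward and form the nucleus, which is never replaced. Crystallins of the alpha, beta and gamma families give the fibre its refractive index. RNA is held mainly by the epithelium and the young outer fibres, so that RNA of a whole lens reports on these cells and not directly on the old fibres of the nucleus.

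The 2 largest movements of opposite sign were in the metallothionein and gamma-crystallin families, and the stretches before the annotated starts of their genes are shown first. Metallothioneins bind zinc and copper, and their genes carry metal response elements. The 250 bases before the start are given for Mt2A (chr19:10838709-10838958, minus strand) and Mt1 (chr19:10832976-10833225, minus strand), from RefSeq on build GRCr8, with matches to TGCACNC or TGCGCNC on either strand in capitals.
Mt2A: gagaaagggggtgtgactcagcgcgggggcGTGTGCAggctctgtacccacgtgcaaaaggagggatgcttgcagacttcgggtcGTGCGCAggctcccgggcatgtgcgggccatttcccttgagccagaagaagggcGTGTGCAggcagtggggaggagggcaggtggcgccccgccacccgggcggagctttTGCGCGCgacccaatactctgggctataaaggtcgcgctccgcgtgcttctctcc
Mt1: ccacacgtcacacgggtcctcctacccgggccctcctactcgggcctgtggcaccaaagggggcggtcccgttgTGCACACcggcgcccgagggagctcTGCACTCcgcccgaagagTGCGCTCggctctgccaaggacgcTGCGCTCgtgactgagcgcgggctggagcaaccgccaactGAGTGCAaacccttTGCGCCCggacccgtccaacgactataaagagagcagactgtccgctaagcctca
Mt2A held 4 matches and Mt1 held 6. At least 1 match stood in 21.2% of the 27457 promoters of this length, and at least 4 stood in 0.277%. For the gamma-crystallins, the same 250 bases are given for Cryge (chr9:73926259-73926508, minus strand), Crygd (chr9:73937410-73937659, minus strand) and Crygf (chr9:74897734-74897983, plus strand), to show how alike the starts of these related genes are. Capitals mark the longest unbroken run shared by Cryge and Crygd in the first pair, and by Crygf and Cryge in the last sequence.
Cryge: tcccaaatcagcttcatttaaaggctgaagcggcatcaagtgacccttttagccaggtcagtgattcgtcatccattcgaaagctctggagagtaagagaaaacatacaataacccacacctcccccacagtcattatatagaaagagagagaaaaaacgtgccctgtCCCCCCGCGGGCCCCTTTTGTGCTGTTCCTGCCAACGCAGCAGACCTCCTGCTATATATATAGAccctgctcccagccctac
Crygd: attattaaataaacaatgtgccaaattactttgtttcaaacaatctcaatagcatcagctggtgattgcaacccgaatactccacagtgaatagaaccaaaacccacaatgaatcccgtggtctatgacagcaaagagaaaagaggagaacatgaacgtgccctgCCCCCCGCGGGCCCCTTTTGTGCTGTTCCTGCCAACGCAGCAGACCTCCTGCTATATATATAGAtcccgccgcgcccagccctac
Crygf: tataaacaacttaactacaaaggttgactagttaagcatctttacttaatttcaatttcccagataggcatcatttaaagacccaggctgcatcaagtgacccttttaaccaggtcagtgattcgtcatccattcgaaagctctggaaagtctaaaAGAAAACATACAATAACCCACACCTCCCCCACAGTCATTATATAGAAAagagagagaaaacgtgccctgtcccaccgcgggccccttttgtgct
Cryge and Crygd shared a run of 64 bases just before the start, and Cryge and Crygf shared a run of 48 bases. The Crygf window ends on letters that stand near the opening of the 64-base run, so the windows are not in register. Whether Crygf holds the rest of that run beyond its window was not tested. A match or a shared run is a description of the letters in this window.

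Of the 5168 genes tested, 105 were higher and 210 were lower in nuclear opacity than in clear lenses (limma, adjusted p under 0.05). This is 6.10% of the tested genes, 2.03% of them higher and 4.06% lower. The counts given for gene lists below are to be set beside these shares. At least 2-fold differences were found for 43 of the higher and 98 of the lower genes, and at least 4-fold differences for 5 and 19. The median standard error of a difference was 0.13 for the higher and 0.14 for the lower genes (log2, 2 arrays each). Over every gene tested, the median difference came to -0.05. The arrays of both groups did not overlap for any of the 315 genes, but this holds little by itself, since 21.6% of all tested genes had both nuclear opacity arrays above both clear arrays and 33.1% had them below.

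These counts rest on a spread estimated from the 3 stages with 2 arrays each, cortical opacity included. Because genes had to reach the floor on 1 array only, 10 of the 105 higher genes reached it on nuclear opacity arrays alone and 27 of the 210 lower genes on clear arrays alone. Those named here are Egfr, Emp1, Gpha2, Kcne4, Lifr and Sulf1 among the higher genes, and Asns, Etv5, Gca, Gpr19, Nlgn1, Sema3c and Tnnt2 among the lower ones. With the 4 arrays alone, 8 genes were higher and 15 lower (limma), and 22 of these 23 were among the 315. Leaving out any 1 of the 4 arrays left 0 genes past the threshold, with 893 to 1158 genes at an unadjusted p under 0.05. The direction of all 315 genes was the same in each of these fits. This could not have come out otherwise, because the groups do not overlap for any of these genes. The calls below are therefore to be read together with the values of the single arrays. The study lists or discusses many of the genes named here, so that their direction is not independent evidence. These are Anxa1, Aplp1, Aqp5, Ass1, Cald1, Capn3, Capn6, Cbln2, Cd44, Chrdl1, Col1a2, Cpm, Cpt2, Crygf, Crygn, Cyp26a1, Dapl1, Dnase2b, Egr1, Eif4e, Emp1, Emp2, Fn3k, Fos, Fxyd6, Gca, Gje1, Gltp, Hmox1, Hopx, Igf2bp2, Junb, Kif5a, Lgsn, Loxl1, Metap1, Mt2A, Nfix, Ngfr, Nlgn1, Nr4a1, Nt5dc2, Ntn4, Nupr1, Pik3r1, Pnpla3, Ramp2, Rcan1, Rcan2, Rnf180, Scd, Slc12a2, Slc25a28, Socs3, Srebf1, Thrsp, Tnnt2, Trex1 and Zfp36.

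**Figure D1:**
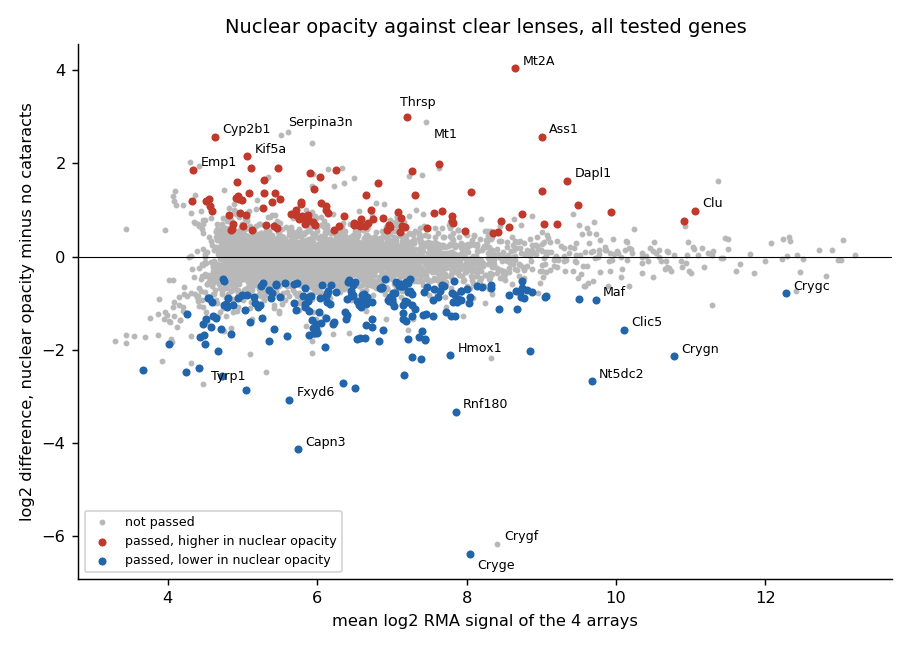
Log2 difference of nuclear opacity (mean of 14 and 18 weeks) minus no cataracts (mean of 2 and 4 weeks) against the mean log2 RMA signal of these 4 arrays, 1 point per tested gene. Red and blue points are the 105 higher and 210 lower genes past the threshold, and grey points such as Crygf, Mt1, Serpina3n and Tyrp1 did not pass.

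Crystallin genes divided by family. Of 7 gamma-crystallin genes tested, 3 fell, 0 rose and 4 did not pass, and the median difference was -1.05, against -0.05 over all tested genes. Cryge had a signal of 6.80 and 2.90 in the 14- and 18-week lenses, against 11.01 and 11.48 in the 2- and 4-week lenses. The difference was -6.39 ± 1.25 (SE; adjusted p = 0.0497). It was -4.44 without the 18-week array and -8.35 without the 14-week array, and the 18-week value lies under the median signal of all named genes (3.50 on the nuclear opacity arrays), so no fold is given. The 18-week lens was 3.90 below the 14-week lens. Crygf, its close relative, had 7.27 and 3.36 in nuclear opacity and 11.27 and 11.71 in clear lenses, a difference of -6.17 ± 1.31 that missed the threshold (adjusted p = 0.0588). Both genes were far below the clear lenses on each nuclear opacity array, and the gap between the 14- and 18-week arrays set their large errors. Because genes of this family have nearly the same sequence, signal of one may reach the probes of another, and this was not tested. Crygn, an outlying member of the family, fell by 2.14 ± 0.19 (adjusted p = 0.0147), with 9.61 and 9.80 in nuclear opacity against 11.96 and 11.73 in clear lenses. Crygc fell by 0.79 ± 0.14 (adjusted p = 0.0416). Crygd, which shares its proximal run with Cryge, had 12.84 and 12.36 in nuclear opacity and 12.91 and 13.13 in clear lenses (adjusted p = 0.226). Crygb had 10.94 and 10.58 against 11.64 and 11.98 (adjusted p = 0.0629), and Crygs, a gamma-crystallin made through adult life, differed by -0.05.

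The 3 alpha- and beta-crystallins measured, Cryab, Cryba1 and Cryba2, had differences between -0.08 and 0.02, none past the threshold and 0 at an unadjusted p under 0.05 (limma). Their signals of 12.92 to 13.22 on the 4 arrays lie near the upper end of the scale, where the array may compress differences. Of 16 other genes of fibre structure tested, 0 passed (limma, 5 at an unadjusted p under 0.05), and the median difference was -0.02. Mip, the major membrane channel of fibres, had 12.16 and 12.43 in nuclear opacity against 12.80 and 12.47 in clear lenses, and Lim2 had 11.46 and 11.45 against 11.95 and 11.56. Lgsn, a fibre protein related to glutamine synthetase, had the largest difference of the group, with 12.08 and 12.28 in nuclear opacity against 9.83 and 11.28 in clear lenses, where the 2-week lens stood apart (adjusted p = 0.102).

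**Figure D2:**
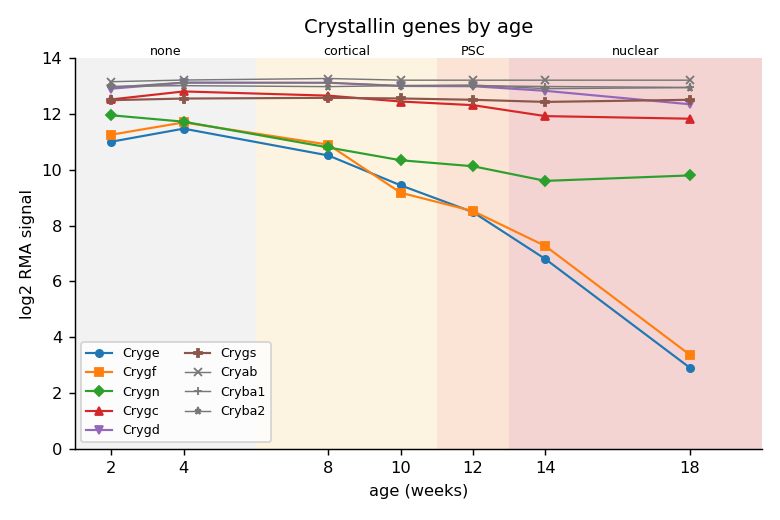
Log2 RMA signal of crystallin genes against age in weeks, 1 point per array, with the stage of opacity shaded (none, cortical, posterior subcapsular as PSC, and nuclear). Cryge and Crygf reach 2.90 and 3.36 at 18 weeks, while Cryab, Cryba1, Cryba2 and Crygs stay above 12.

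Genes of fibre maturation moved less evenly. Of 9 genes of organelle and nucleus removal tested, 2 fell, 0 rose and 7 did not pass (median -0.35). Hsf4, the heat shock factor of the lens, which drives fibre genes, fell by 0.92 ± 0.14, with 7.60 and 7.26 in nuclear opacity and 8.41 and 8.29 in clear lenses (adjusted p = 0.0315). Trex1, a DNA exonuclease, fell by 2.72 ± 0.41, with 5.22 and 4.74 against 7.86 and 7.53 (adjusted p = 0.0312). Dnase2b, the nuclease that degrades fibre nuclei, had 6.77 and 7.85 in nuclear opacity and 8.56 and 8.61 in clear lenses (adjusted p = 0.205), and its 18-week level was 1.07 above its 14-week level. Of the 3 connexins tested, Gje1 fell by 1.75 ± 0.30 (adjusted p = 0.039), with 5.81 and 5.58 against 7.80 and 7.10. Gja3, a main fibre connexin, had 8.37 and 8.22 against 8.59 and 8.78 and did not pass.

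Transcription factors of the lens went both ways. Of 16 tested, 3 rose, 2 fell and 11 did not pass, with a median of -0.12. Over all tested genes, 2.03% rose and 4.06% fell. Maf, an activator of crystallin genes, fell by 0.93 ± 0.12, with 9.41 and 9.13 in nuclear opacity and 10.23 and 10.16 in clear lenses (adjusted p = 0.0264). Satb1, an organizer of chromatin, fell by 1.52 ± 0.10, with 5.23 and 5.14 against 6.68 and 6.74 (adjusted p = 0.0145). The risers were Hopx, a homeodomain protein without DNA binding, at 9.57 and 9.88 against 8.19 and 8.43, and the nuclear factors Nfix and Nfia, with differences of 0.96 and 0.68. Pax6, Prox1 and Foxe3, which mark lens identity and its epithelium, differed by -0.10, -0.14 and -0.22 and did not pass. Of 9 lens epithelium genes, only Sulf1, a sulfatase of heparan sulfate, passed, with 5.65 and 5.50 in nuclear opacity and 4.08 and 4.59 in clear lenses.

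Calcium-related genes contained some of the largest differences in both directions. Calpains are calcium-activated proteases, and Capn3, which rodent lenses express in splice forms of their own, fell the most. It had 4.31 and 3.03 in nuclear opacity and 8.12 and 7.49 in clear lenses, a difference of -4.14 ± 0.57 (limma adjusted p = 0.0271). The difference was -3.50 without the 18-week array and -4.78 without the 14-week array. The 18-week Capn3 value lies under the median signal of all named genes on the nuclear opacity arrays (3.50). Capn6, a calpain without protease activity, rose by 0.90 ± 0.12, and the other 5 members tested, among them Capn2, the shared small subunit Capns1 and the inhibitor Cast, did not pass. The EF-hand proteins Gca and Pvalb fell together. Gca had 3.33 and 3.90 in nuclear opacity against 6.50 and 6.44 in clear lenses, and Pvalb had 5.44 and 4.74 against 7.95 and 7.89 (both adjusted p = 0.0158). Rcan2 and Rcan1, inhibitors of the calcium-dependent phosphatase calcineurin, rose by 1.71 ± 0.23 and 1.09 ± 0.15. S100a10, the partner of annexin A2, rose by 1.39 ± 0.16. Of 14 genes of calcium pumps, channels and binding proteins, 3 rose, 2 fell and 9 did not pass (median 0.01). Over all tested genes, 2.03% rose and 4.06% fell. Of 6 annexins, which bind membranes in the presence of calcium, 2 rose and 4 did not pass (median 0.73). Anxa1 had 8.27 and 8.12 in nuclear opacity and 6.14 and 6.56 in clear lenses (adjusted p = 0.0185), and Anxa5 had 8.29 and 8.04 against 7.34 and 7.02 (adjusted p = 0.032).

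Among transport genes, Fxyd6, a regulator of the sodium pump, fell by 3.08 ± 0.33, with 4.42 and 3.76 in nuclear opacity and 7.16 and 7.17 in clear lenses (adjusted p = 0.0185). Fxyd1 differed by 0.18 and Atp1b3 by 0.10, neither past the threshold. Of 11 genes in the list of water, chloride and acid transport, 2 rose and 0 fell. The chloride cotransporter Slc12a2 rose by 0.84 ± 0.11. Cpm, a membrane carboxypeptidase that trims basic residues from peptides, had 8.74 and 8.52 against 6.42 and 6.86 (limma adjusted p = 0.0192). Cpm is not a transporter, and the paper groups it with Aqp5 under lens homeostasis. The lens water channel Aqp5 had 6.72 and 6.65 in nuclear opacity and 4.93 and 5.43 in clear lenses and did not pass (adjusted p = 0.0656). Solute carriers were mostly lower, with 12 of 16 differences below 0, against 57.2% of all tested genes. Of 16 tested, 4 fell, 1 rose and 11 did not pass, with a median of -0.59 against -0.05 over all tested genes. Slc7a5 and Slc3a2, which form one exchanger of large neutral amino acids, fell by 1.12 ± 0.12 and 0.71 ± 0.12. The glutamine carrier Slc38a3 fell by 0.86 ± 0.14, and the glucose carrier Slc2a1 fell by 0.75 ± 0.12, with 8.55 and 8.46 in nuclear opacity and 9.39 and 9.12 in clear lenses. Slc25a28, an iron importer of mitochondria, rose by 1.37 ± 0.14.

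The largest rise of all genes was that of Mt2A. It had a signal of 11.28 and 10.06 in the 14- and 18-week lenses, against 6.10 and 7.16 in the 2- and 4-week lenses, a difference of 4.04 ± 0.64 (16.5-fold, adjusted p = 0.034). Mt1, the neighbouring gene, had 9.16 and 8.65 in nuclear opacity and 5.66 and 6.37 in clear lenses, and with its wider spread did not pass (difference 2.89 ± 0.69, adjusted p = 0.0732). The array's Mt1f had 7.92 and 6.63 against 4.93 and 5.84 (adjusted p = 0.189). For these 3 genes both nuclear opacity arrays were above both clear arrays, as they were for 21.6% of all tested genes. In each of them the 14-week array was the highest of the 4, and the 10-week lens lay below the 8- and 12-week lenses. Metallothionein genes are close paralogs, and sharing of signal between their probes was not tested. The zinc-sensing factor Mtf1 had 5.58 and 6.11 in nuclear opacity and 6.26 and 6.32 in clear lenses, without passing.

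Of 25 glutathione and antioxidant genes, 2 fell, 0 rose and 23 did not pass (median -0.07). Hmox1, which degrades heme, fell by 2.12 ± 0.36, with 6.57 and 6.88 in nuclear opacity against 9.06 and 8.61 in clear lenses (adjusted p = 0.039). Gpx3, a secreted glutathione peroxidase, fell by 0.83 ± 0.13, with 7.58 and 7.27 against 8.27 and 8.24 (adjusted p = 0.0344). The catalase gene Cat had 8.76 and 8.88 against 8.40 and 8.41, and the rate-limiting glutathione enzyme Gclc had 5.97 and 6.36 against 5.96 and 6.36, neither past the threshold. Of 13 heat shock chaperone genes, Dnajb1 and Hsf4 fell and Clu rose. Clu, a secreted chaperone, had 11.62 and 11.48 in nuclear opacity against 10.55 and 10.59 in clear lenses (difference 0.98 ± 0.11, adjusted p = 0.0187). None of 15 tested genes of the unfolded protein response passed at the adjusted threshold (limma, 0 at an unadjusted p under 0.05), and their median difference was 0.00. Of 18 genes of amino acid shortage and the integrated stress response, 4 fell and 1 rose (median -0.27). The fallers were Psat1 of serine synthesis, with 6.52 and 6.58 against 7.95 and 7.57, the asparagine synthetase Asns, with 4.43 and 4.29 against 5.38 and 5.11, and both exchanger subunits named above. Nupr1, a stress-induced chromatin protein, was the riser, with 6.82 and 6.77 in nuclear opacity against 5.11 and 4.90 in clear lenses (adjusted p = 0.0199), and Atf4, the factor that drives this response, differed by -0.07.

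**Figure D3:**
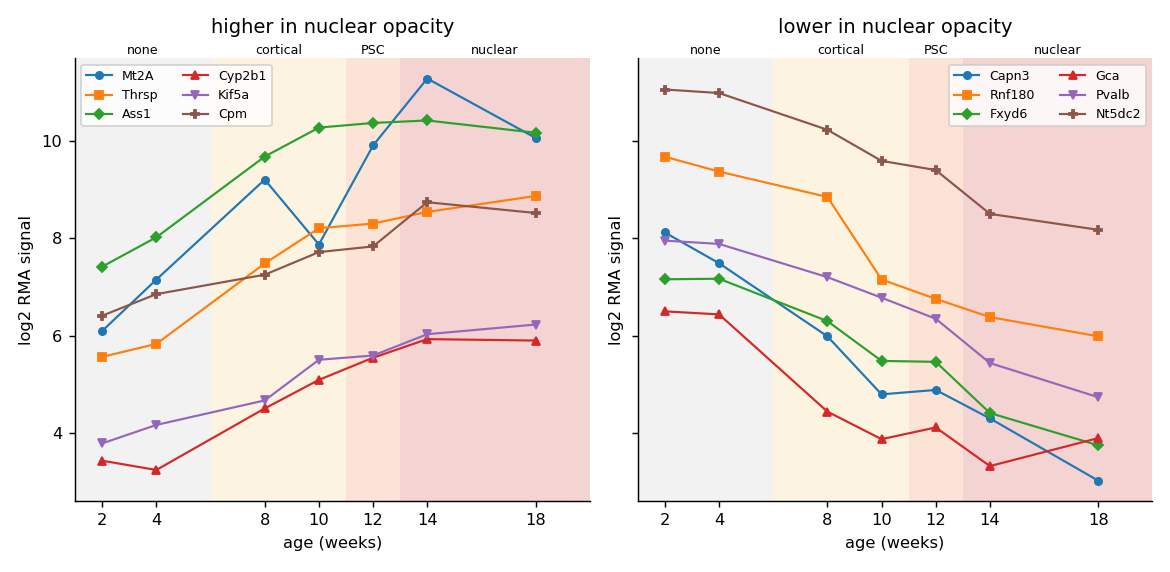
Log2 RMA signal of 6 genes that rose (left) and 6 that fell (right) against age in weeks, 1 point per array, with the stage of opacity shaded (PSC, posterior subcapsular). The 12 were taken from the genes past the threshold, none of which overlap between the groups. Over all tested genes, 21.6% had both nuclear opacity arrays above both clear arrays and 33.1% had them below. Mt2A shows its low 10-week value of 7.87.

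In lipid and drug metabolism, a few genes passed the test. Thrsp, a nuclear regulator of fatty acid synthesis, had 8.54 and 8.87 in nuclear opacity and 5.57 and 5.84 in clear lenses, which was 8.02-fold higher (SE 0.27 on the log2 scale, adjusted p = 0.0149). The desaturase Scd rose by 1.23 ± 0.14 and Pnpla3, an acylglycerol hydrolase, by 0.92 ± 0.15. Lpin1, a phosphatidate phosphatase, fell by 1.14 ± 0.12. These were 4 of 14 fatty acid synthesis genes (median -0.03). Srebf1, the transcription factor of this pathway, had 7.84 and 7.80 against 6.68 and 6.95 and did not pass. None of 13 cholesterol synthesis genes passed (limma, 3 at an unadjusted p under 0.05, median -0.08). Of 8 genes of cytochromes P450 and retinoid metabolism, 2 rose and 0 fell, with 7 of 8 differences above 0 (median 0.38). Cyp2b1, which hydroxylates steroids and drugs, had 5.93 and 5.91 in nuclear opacity and 3.44 and 3.25 in clear lenses (difference 2.57 ± 0.21, adjusted p = 0.0147). Its clear values lie under the median signal of all named genes on these arrays (3.52), so no fold is given. Cyp26a1, which clears retinoic acid, had 6.17 and 6.70 against 4.70 and 4.35 (adjusted p = 0.0264). Cpt2, needed for the entry of fatty acids into mitochondrial oxidation, fell by 2.21 ± 0.32, and Gltp, a glycolipid transfer protein, fell by 2.03 ± 0.14, with 7.86 and 7.80 in nuclear opacity and 9.98 and 9.74 in clear lenses.

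Ass1, the argininosuccinate synthase that recycles citrulline to arginine, had 10.42 and 10.17 in nuclear opacity and 7.42 and 8.02 in clear lenses (5.94-fold, adjusted p = 0.0192). It was the only one of 6 arginine metabolism genes to pass. The urea carrier Slc14a1 had 4.72 and 6.06 against 3.26 and 3.63 (adjusted p = 0.0656). Of 10 glycolysis and polyol genes, Fn3k, a kinase that repairs glycated proteins, rose by 1.12 ± 0.17, and 9 did not pass, among them the aldose reductase Akr1b1 at 9.91 and 10.21 against 10.09 and 9.89. Of 65 nuclear-encoded subunits of the respiratory chain tested, 5 fell, 0 rose and 60 did not pass, and the median difference was -0.32. Ndufs7, a subunit of complex I, had 6.12 and 6.35 in nuclear opacity and 7.24 and 7.20 in clear lenses (adjusted p = 0.0192), and Ndufs4, Ndufa11, Ndufa12 and Uqcr11 fell by 0.87, 0.77, 0.52 and 0.87. Fallers were 7.69% of this list, against 4.06% of all tested genes, and 57 of the 65 differences were below 0, against 2957 of all 5168. Pdha1, the entry enzyme from pyruvate, rose by 0.92 ± 0.10. Of 69 cytosolic ribosomal protein genes 0 passed (limma, 7 at an unadjusted p under 0.05, median 0.08), of 45 mitochondrial ones 1 rose and 1 fell (median -0.12), and of 31 proteasome subunits Psmb6 fell (median -0.13).

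Genes of early response varied between the arrays. Of 19 immediate early genes tested, 3 rose, 0 fell and 16 did not pass. All 19 differences were above 0, and the median was 1.16, against -0.05 over all tested genes. Nr4a1, a nuclear receptor induced within minutes of a stimulus, had 5.91 and 5.54 in nuclear opacity and 4.12 and 4.14 in clear lenses (difference 1.59 ± 0.14, adjusted p = 0.0147). The AP-1 members Junb and Jund rose by 1.37 ± 0.25 and 0.64 ± 0.12. Fos had 8.83 and 8.32 in nuclear opacity against 6.19 and 7.18 in clear lenses, Egr1 had 8.64 and 7.55 against 6.08 and 6.67 and Socs3 had 7.72 and 6.16 against 3.62 and 4.93, and none of these passed (adjusted p = 0.157, 0.129 and 0.0911). The mean level of the 23 named members was 5.98 and 5.45 in the 14- and 18-week lenses and 4.62 and 4.78 in the 2- and 4-week lenses. Over the other arrays it was 5.21 at 8 weeks, 4.57 at 10 weeks and 6.19 at 12 weeks, so that it did not follow age or stage in order. The 250 bases before the start of Nr4a1 (chr7:134259888-134260137, plus strand, RefSeq, GRCr8) are shown because it had the smallest error of the members of this list that differed at least 2-fold. Matches to TGACG, the core of the cAMP response element, on either strand are in capitals.
Nr4a1: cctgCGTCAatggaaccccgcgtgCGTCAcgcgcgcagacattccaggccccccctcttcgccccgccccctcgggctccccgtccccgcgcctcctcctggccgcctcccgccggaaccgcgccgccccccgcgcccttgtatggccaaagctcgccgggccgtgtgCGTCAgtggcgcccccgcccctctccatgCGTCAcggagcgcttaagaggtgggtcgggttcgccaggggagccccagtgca
It held 4 matches, where 5205 of the 27457 promoters of this length held at least 1 and 0.186% held at least 4.

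Growth control genes were represented by a few members. Ccnd2, a D-type cyclin, fell by 1.64 ± 0.11, with 5.06 and 5.20 in nuclear opacity and 6.86 and 6.67 in clear lenses (adjusted p = 0.0145). It was 1 of only 5 cell cycle genes tested, since 22 members did not reach the floor on any array. Etv5, a target of FGF signals, fell by 1.33 ± 0.18, with 4.08 and 3.87 against 5.53 and 5.08, and the receptor Egfr rose by 1.19 ± 0.21, with 5.22 and 4.62 against 3.64 and 3.83. Egfr reached the floor on the 14-week array alone. The FGF receptors Fgfr1, Fgfr2 and Fgfr3 differed by -0.25, 0.38 and -0.02, without passing. Igf2bp2, a binder of mRNA, fell by 2.55 ± 0.28, and the ubiquitin ligase Rnf180 fell by 3.33 ± 0.55, with 6.39 and 5.99 in nuclear opacity and 9.68 and 9.37 in clear lenses. Prkca, a calcium-dependent protein kinase, fell by 1.34 ± 0.10. Nt5dc2, among the brightest fallers, had 8.50 and 8.18 against 11.05 and 10.98 (6.40-fold lower, adjusted p = 0.0147), and the chloride channel protein Clic5 had 9.32 and 9.33 against 10.96 and 10.84 (adjusted p = 0.0147). Dapl1 was among the brightest risers, with 10.06 and 10.26 in nuclear opacity and 8.57 and 8.51 in clear lenses (adjusted p = 0.0147).

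Of 13 mesenchymal and fibrosis genes tested, 4 rose, 2 fell and 7 did not pass. The median difference was 0.64, against -0.05 over all tested genes, of which 2.03% rose and 4.06% fell. Col1a2, a chain of type I collagen, had 5.85 and 6.11 in nuclear opacity and 4.56 and 5.08 in clear lenses (difference 1.16 ± 0.20, adjusted p = 0.0394). Cd44, a hyaluronan receptor, rose with 6.17 and 6.25 against 4.95 and 5.47, and Cald1, an actin-binding protein, and Pik3r1, a regulatory subunit of PI3-kinase, rose by 0.94 and 1.17. Loxl1, which cross-links elastic fibres, and the receptor Tgfbr1 fell by 1.82 ± 0.34 and 0.81 ± 0.14. Fn1, Col1a1 and Tagln, often used as markers of mesenchymal transition, were among 11 members that did not reach the floor on any array. In the capsule list, Ntn4, a netrin that binds laminin, was the only one of 15 genes to pass, with 5.94 and 6.19 in nuclear opacity and 4.01 and 4.30 in clear lenses (adjusted p = 0.0147), while the collagen IV chains Col4a1 and Col4a2 differed by -0.09 and -0.16. In the BMP list, the antagonist Chrdl1 was the only one of 9 to pass, at 7.19 and 7.18 against 5.39 and 5.26 (3.63-fold, adjusted p = 0.0147).

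Of the 4 epithelial membrane proteins, membrane proteins of the PMP22 family, Emp1 and Emp2 rose. Emp2 had 6.18 and 6.03 in nuclear opacity and 4.35 and 4.58 in clear lenses (adjusted p = 0.0147). Emp1 had 5.15 and 5.38 in nuclear opacity and 3.45 and 3.37 in clear lenses, a difference of 1.86 ± 0.11 (adjusted p = 0.0145). Nuclear opacity was also compared with cortical opacity, the other opaque stage with 2 arrays. In the same limma fit, nuclear minus cortical opacity was 2.21 ± 0.11 for Emp1 (adjusted p = 0.0175), and it was the only gene of 5168 to pass, which is 0.0193% of those tested. The difference was 2.10 to 2.33 in every other fit that measured it, but the call was lost without the filter on low values, with the 4 arrays of these stages alone, without any 1 of the 8-, 10-, 14-, 18-, 2- or 4-week arrays, and with a trended and robust prior (adjusted p = 0.143). Leaving out the 2- or the 4-week array repeats the fit of the 4 nuclear and cortical opacity arrays alone, since 1 clear array adds no spread. The Emp1 signals were 3.04 and 3.07 in cortical opacity at 8 and 10 weeks and 3.62 at 12 weeks. The rise was thus seen on both nuclear opacity arrays and not before. Since Emp1 reached the floor on these arrays alone, it entered the test only through the group where it is high, and its other values lie near the median signal of all named genes (3.52 on the clear arrays), so that its difference is one against a signal at the level of background. The genes past the threshold differed in where the lenses between lay. Of the 105 higher genes, the 8-, 10- and 12-week values were nearer to the nuclear opacity mean than to the clear mean for 36, 55 and 67 genes. For the 210 lower genes these counts were 120, 180 and 191. The values at 8, 10 and 12 weeks all lay nearer to the nuclear opacity mean for 31 higher and 117 lower genes. They all lay nearer to the clear mean for 32 higher and 14 lower genes.

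**Figure D4:**
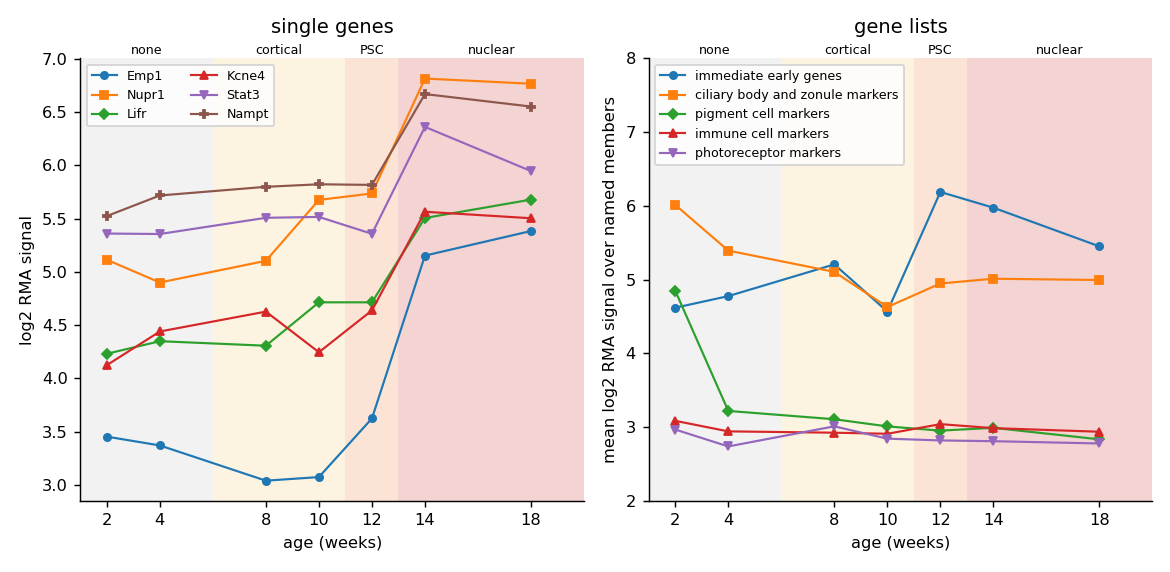
Log2 RMA signal against age in weeks, with the stage of opacity shaded (PSC, posterior subcapsular), for 6 single genes chosen after their values were seen (left) and as the mean over named members of 5 gene lists (right), 1 point per array. Emp1 stands at 5.15 and 5.38 in nuclear opacity against 3.45 and 3.37 in clear lenses, and the pigment cell markers are highest at 2 weeks.

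Genes best known from neurons were among the largest differences in both directions. Of 8 tested, 1 rose and 4 fell (median -0.85), while 18 others did not reach the floor. Over all tested genes, 2.03% rose and 4.06% fell (median -0.05). Kif5a, a motor of axonal transport, had 6.04 and 6.23 in nuclear opacity and 3.80 and 4.17 in clear lenses (4.44-fold, adjusted p = 0.0271). Nlgn1, a synaptic adhesion protein, had 2.75 and 3.26 against 5.90 and 5.07, and the receptor Gpr19 had 2.14 and 2.76 against 5.28 and 4.50. The secreted synapse organizer Cbln2 had 6.05 and 6.61 against 8.27 and 7.93, and all of these passed the threshold. The nuclear opacity values of Nlgn1 and Gpr19 lie under the median signal of all named genes on these arrays (3.50). Aplp1, a relative of the amyloid precursor, fell by 1.56 ± 0.20.

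Markers of other cell types were used to ask what else the samples held. None of the markers of photoreceptors (11 measured), immune cells (14), blood cells (3) and endothelium (7) reached the floor of 5 on any array, and their highest values were 4.08, 4.24, 4.23 and 4.06. Of 6 muscle markers 2 were tested, and Tnnt2, a troponin, fell, with 4.26 and 3.40 in nuclear opacity against 5.22 and 5.45 in clear lenses (adjusted p = 0.0497). Of 4 glia and 7 corneal and conjunctival markers 1 each was tested, Aqp4 and Krt13, and neither passed. Pigment cell and ciliary body or zonule markers were highest in the 2-week lens. The mean of the endothelium markers, all under the floor, was also highest there, at 3.37 against 2.65 to 2.94 on the other arrays. So were the means of glia, muscle and immune cell markers, but not those of photoreceptor, blood and corneal or conjunctival markers. The mean level of 10 pigment cell markers was 2.99 and 2.83 in the 14- and 18-week lenses and 4.85 and 3.22 in the 2- and 4-week lenses. Tyrp1, an enzyme of melanin synthesis, had 3.69 and 2.53 in nuclear opacity and 7.62 and 4.06 in clear lenses (adjusted p = 0.222). Of 5 pigment markers tested, only Mitf fell past the threshold (-0.97 ± 0.16). For 13 ciliary body and zonule markers the mean was 5.01 and 4.99 in nuclear opacity, against 6.01 and 5.39 in clear lenses, and of 9 tested Mfap2, a microfibril protein, fell by 1.67 ± 0.10. Among the 98 fallers of at least 2-fold, 1 had a 2-week value at least 2-fold above its 4-week value, and among the 80 lower genes of that size that did not pass, 48 had one. Gaps of this kind enter the error, so that the test itself selects against them. A smaller amount of adhering tissue and less RNA per cell cannot be told apart in whole lenses, and the part of adhering tissue in the differences was not tested. Without the 2-week array the medians were -0.64 for pigment and -0.59 for ciliary body and zonule markers, against -1.33 and -1.34 with it.

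Between the arrays with nuclear opacity, 35 of the tested genes lay at least 2-fold apart, 9 higher and 26 lower at 18 weeks than at 14 weeks. These are differences of single arrays, with no test. The median absolute difference was 0.15, against 0.13 between the 2- and 4-week lenses. Crygf and Cryge were the farthest apart, 3.91 and 3.90 lower at 18 weeks. Serpina3n, a protease inhibitor of the acute phase, had 8.53 at 14 weeks and 5.12 at 18 weeks, with 3.93 and 4.49 in clear lenses, so that the difference of the means rested on 1 array (adjusted p = 0.207). Clic3, a chloride channel protein, was at 8.39 and 6.08, and Zfp36, which destabilizes mRNA, at 8.07 and 6.10. Slc1a2, a glutamate carrier, was at 6.14 and 4.46. The 9 genes higher at 18 weeks differed by 1.07 to 1.38. Ccn2, a matricellular growth factor, was the highest of them, with 5.99 and 7.36 at 14 and 18 weeks, followed by Slc14a1 with a difference of 1.34, and Dnase2b was the lowest.

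**Figure D5:**
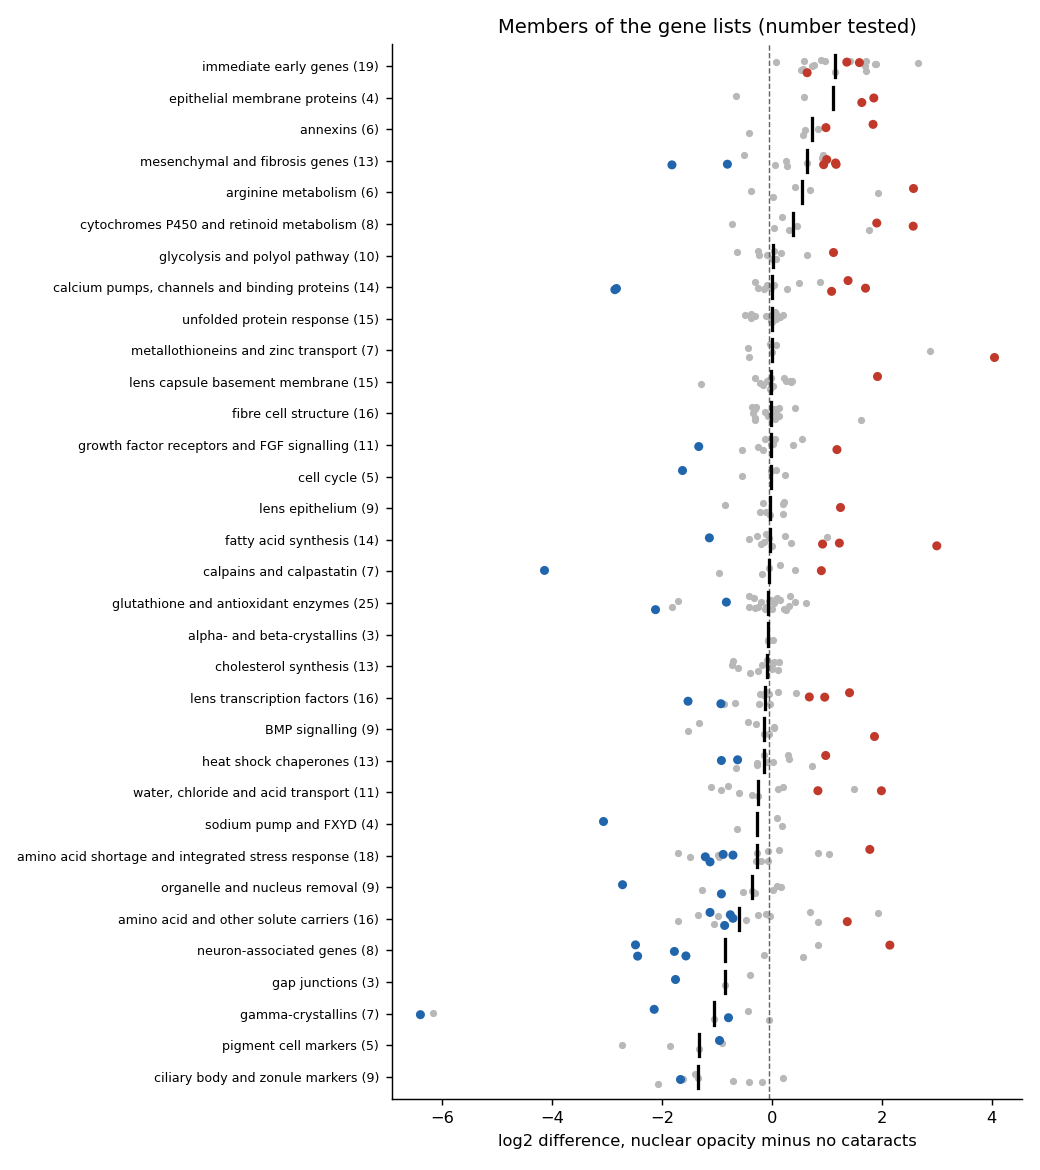
Log2 difference of nuclear opacity minus no cataracts for the tested members of 33 gene lists, 1 point per gene, ordered by the list median (black bar), with the number tested in brackets. Red and blue points passed the threshold, and the dashed line is the median of all tested genes (-0.05). Immediate early genes are at the top (1.16) and ciliary body and zonule markers at the bottom (-1.34).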

How the data were processed

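For RNA of whole ICR/Ihr lenses there were 7 arrays (GeneChip Rat Gene 2.0 ST). The authors deposited log2 signals of transcript clusters after RMA, used here as deposited. Of 36685 clusters, 18511 with 1 gene symbol were kept. Symbols were updated through RefSeq (GRCr8) for 18394, and the cluster with the highest mean stood for each of 18166 genes. Genes under a log2 value of 5 on all arrays were left out (12998), and 5168 were tested. limma 3.58.1 in R 4.3.3 estimated a mean for each stage from all arrays, with 3 residual degrees of freedom that moderation raised to 5.37, and used Benjamini-Hochberg adjustment over all tested genes and a threshold of 0.05. RMA gave equal values on both arrays of a stage for 322 tested genes in nuclear opacity and 346 in clear lenses, of which 1 and 2 passed. In the cortical pair, which shares the error estimate, 393 tested genes had equal values, and 25 of them passed. A pair with equal values adds no spread to the error of its gene. Between 4146 and 4595 genes reached 5 on single arrays. The fit was tested on simulated data with independent noise for each gene and no effect of age within a stage. Of 200 genes changed by 1 on the log2 scale 70.5% were called, and of 200 changed by 2 it was 96%. Since the real arrays of a stage differ in age, this cannot show how far the calls here hold. The 40 gene lists, with 4 more made by name pattern, and the genes compared were chosen with earlier results of these data known. Genes were named by rule: the 20 largest differences and 10 smallest p-values each way, the 10 largest that did not pass, the 5 brightest that passed, the 8 largest 18- minus 14-week differences, and for each list its passing, first and most extreme members. Crygb and most genes under the additional observations stand outside it. The 15 alternatives covered filter, scaling, prior, array weights, choice of cluster and arrays in the fit. Figures were drawn with matplotlib.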

Additional observations from a re-analysis of the deposited data

How the results depend on the processing

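All 315 genes kept their direction in each of the 15 alternatives in which they were tested, but not their side of the threshold. A direction could change only with quantile normalization, median centring or the mean over all clusters of a gene. The other alternatives use the same values, and the groups of these genes do not overlap. Without the filter on low values, 0 genes passed (2150 at an unadjusted p under 0.05, 0 higher and 0 lower after adjustment). With the 4 arrays alone, 23 genes passed, 8 higher and 15 lower. Leaving out either cortical array repeats this fit, since the remaining one adds no spread. Leaving out 1 array in turn gave 0 to 23 genes, 0 to 8 higher and 0 to 15 lower, since a fit without a clear or nuclear opacity array leaves 1 array on that side, taken to vary like the others, and one residual degree of freedom fewer. A trended and robust prior gave 480 genes, 171 higher and 309 lower, and quantile normalization gave 466, 212 higher and 254 lower, which is 45.5% higher against 33.3% in the fit as reported. Both these fits and median centring took Crygf, Aqp5 and Slc14a1 past the threshold. Quantile normalization also took in Crygb and Mt1, and both scalings lost Ndufa12, Gars1 and Jag1. The trended and robust prior also took in Crygb and lost Asns, Egfr, Gpha2 and Gpr19. A floor of 6 took in Aqp5, Crygb, Crygf, Mt1 and Slc14a1. The other settings stayed within 1.5 times of the reported counts.

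For nuclear against cortical opacity, alternatives were added after seeing the data. Quantile normalization and median centring gave 2 genes each and the trended and robust prior 3, while no filter and the 4 arrays alone gave 0, and leaving out 1 array gave 0 throughout (1234, 505 and 460 to 699 genes at an unadjusted p under 0.05). The Emp1 difference stayed between 2.10 and 2.33.

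Genes that did not pass and lay near 0 changed sign in places. With quantile normalization the differences were 0.014 for Aqp4, 0.0056 for Col4a1, -0.044 for Cryab, 0.024 for Crygs and 0.042 for Fgfr3. Leaving out 1 array gave -0.074 to 0.22 for Akr1b1, -0.29 to 0.21 for Aqp4, -0.17 to 0.030 for Atf4, -0.22 to 0.033 for Col4a1, -0.0054 to 0.054 for Cryab, -0.17 to 0.011 for Cryba1, -0.069 to 0.032 for Fgfr3, -0.19 to 0.20 for Gclc and -0.24 to 0.031 for Pax6. The cause of the changes was not tested. No paired analysis was possible, because each array holds lenses of a different age. With 2 arrays a side, the number of arrays limits the precision.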

Other observations

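The genes of this section were chosen after their values were seen, and no list of them was tested. Several genes of protein synthesis were among those that fell in nuclear opacity. Eif4e, which binds the cap of mRNA, had 5.77 and 5.75 in the 14- and 18-week lenses and 7.65 and 7.39 in the 2- and 4-week lenses (difference -1.76 ± 0.30, limma adjusted p = 0.0394). Its partners, the helicase Eif4a1 and the scaffolds Eif4g1 and Eif4g3, fell by 0.98 ± 0.18, 0.75 ± 0.11 and 0.76 ± 0.13, while Eif4b, a cofactor of the helicase, rose by 0.77 ± 0.11. Metap1, which removes the first methionine of new proteins, fell by 1.78 ± 0.17, with 6.56 and 6.54 against 8.52 and 8.14. The synthetases that charge tRNA with serine, methionine and glycine, Sars1, Mars1 and Gars1, fell by 0.77 ± 0.15, 0.67 ± 0.10 and 0.52 ± 0.10. Idh1, which makes NADPH from isocitrate, had 4.54 and 4.94 in nuclear opacity and 6.61 and 6.27 in clear lenses, and Got1, an aspartate aminotransferase, had 4.60 and 4.67 against 6.15 and 6.24, while 0 of 10 glycolysis and polyol genes fell.

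Some adhesion and guidance genes fell. The fibronectin-leucine-rich proteins Flrt2 and Flrt3 fell by 1.31 ± 0.11 and 1.09 ± 0.18, with 5.50 and 5.43 in nuclear opacity and 6.88 and 6.68 in clear lenses for Flrt2. Alcam, an adhesion molecule, fell by 1.07 ± 0.13, the semaphorin Sema3c fell by 1.35 ± 0.19 and the Notch ligand Jag1 fell by 0.48 ± 0.09. Some receptors rose. Tnfrsf12a, the receptor of TWEAK, had 5.92 and 5.62 in nuclear opacity against 4.64 and 4.18 in clear lenses, the neurotrophin receptor Ngfr had 7.24 and 7.37 against 5.80 and 6.18, and Ramp2, a partner of the calcitonin receptor-like receptor, had 5.56 and 5.64 against 4.28 and 4.51.

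Of the 315 genes past the threshold, 8 had values at 8, 10 and 12 weeks that had covered less than 25% of the way between the clear and the nuclear opacity mean on each of these arrays. Besides Emp1 these were Psmf1, Gpha2, Stat3, Nampt, Arhgap21 and Dlg1, which were higher, and Gpx3, which was lower. Stat3, a transcription factor of cytokine signals, had 6.36 and 5.95 in nuclear opacity and 5.36 and 5.36 in clear lenses, with 5.51, 5.52 and 5.36 at 8, 10 and 12 weeks. Nampt, which makes a precursor of NAD, had 6.67 and 6.55 against 5.52 and 5.72. Outside these 8, the cytokine receptor Lifr and the potassium channel subunit Kcne4 had covered up to 32.6% and 28.4% of the way. Lifr had 5.51 and 5.68 against 4.23 and 4.35, and Kcne4 had 5.57 and 5.50 against 4.12 and 4.44. Both reached the floor on nuclear opacity arrays alone. Among all the genes of this paragraph, only Emp1 passed in the comparison of nuclear with cortical opacity.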
